A study of Mus musculus with 27 samples.

Results

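The 38 genes described here carry glucose from its uptake to lactate and through the pentose phosphate pathway. They were chosen by gene symbol, with earlier results of these data known. The 38 symbols stood on 39 of the 26802 rows of the count table, since Aldoa has a second row with 11 reads that was not tested. Of the 38 genes, 36 had enough reads to be tested. Hk3, a hexokinase of myeloid cells, had 20 reads over all libraries and Aldoc, the brain aldolase, had 76, and neither was tested.

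RNA was sequenced from 27 libraries of mouse T cells in 9 groups of 3. The genotypes were B6-wt (wild type), B6-Tg(Cd4-cre)1Cwi-Rptortm1.1Dmsa (Raptor knockout) and B6-Tg(Cd4-cre)1Cwi-Rictortm1.1Klg (Rictor knockout), so a Cre driven by the Cd4 promoter is named for both knockouts and not for wild type. CD4+ or CD8+ cells, taken by magnetic negative sorting from lymph node and spleen combined, spent 48 h either in IL-7 (5 ng/ml), a cytokine that keeps T cells alive without activating them (resting), or on plates coated with anti-CD3 and anti-CD28, at 10 µg/ml (stimulated), before cells negative for the death markers MFG-E8 and 7-AAD were sorted. Wild type and Raptor knockout were sampled as resting and stimulated CD4+ and CD8+ cells, and Rictor knockout as stimulated CD8+ cells only. Age, sex and the number of mice behind a group's 3 libraries are not in the labels, so a p-value here reflects the spread from library to library, which may be technical. They also carry library codes. The 3 Rictor knockout libraries share 1 code, while every other group has 1 library of each of 3 codes.

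Glycolysis splits glucose into pyruvate in the cytosol and yields ATP and NADH. Lactate dehydrogenase turns pyruvate into lactate and renews NAD+, and the pentose phosphate pathway branches off after the first phosphorylation to make NADPH and ribose for nucleotides. T cells that are stimulated through their antigen receptor and CD28 are known for a large rise in glucose uptake and lactate release even in the presence of oxygen. Raptor belongs to the kinase complex mTORC1 and not to mTORC2, which Rictor defines. The first complex is known to favour glycolytic gene expression through HIF1A and MYC.

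Total counts ranged from 8640699 to 16817347 per library, of which the ribosomal RNA precursor Rn45s took 81.1% to 88.4%. It was left out, which left 1522199 to 2515583 counts, and levels are given as CPM, the usual per-library scale of read counts, after TMM scaling of those counts. A floor of 3 reads over a group corresponds to 0.333 to 0.707 CPM, a limit for counting error only. The share of protein-coding reads differed between groups, with a median of 55.5% in stimulated wild-type CD4+ cells, 39.5% in the Raptor knockout, 52.9% in stimulated wild-type CD8+ cells and 47.2% in the Raptor knockout. In resting cells the medians were 27.1% to 33.0%. Markers set the subsets apart in every group: Cd4 and Zbtb7b summed to 195 CPM or more in each CD4+ library and at most 16.6 CPM in each CD8+ library. Counts over the whole genes did not show the targeted gene falling against wild type. Rptor differed by -0.25 (adjusted p = 0.427, edgeR) and -0.23 (adjusted p = 0.510) on the log2 scale between stimulated Raptor knockout and wild-type CD4+ and CD8+ cells, and Rictor by -0.20 (adjusted p = 0.961) between Rictor knockout and wild type, so the genotypes rest on the labels. Rictor was higher in stimulated Raptor knockout than in wild-type cells, by 0.60 (adjusted p = 0.00614) in CD4+ and 0.49 (adjusted p = 0.0337) in CD8+ cells, and in the Rictor knockout it was lower than in the Raptor knockout, with -0.68 (adjusted p = 0.00177).

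Sequences upstream of 6 members are shown first, as examples from the lower steps and the lactate genes. They are Ldha and Slc16a1 for lactate and its export, Pgk1, Pgam1 and Eno1 for the lower steps, and Ldhb as a lactate dehydrogenase gene with few reads. They do not span the range of response, since Hk2, with the largest rise, and Pdk1 and Pdk2, which fell, are left out. All but Ldhb are among the genes lower in stimulated Raptor knockout cells of both subsets, described below. Each sequence is the 250 bases before a RefSeq transcription start on GRCm38.p6, written 5′ to 3′ on the gene's strand. Capitals mark the word CACGTG, an E-box that factors of the MYC family can bind, and the words ACGTG and GCGTG, the core of the site that HIF1A can bind, on either strand (reversed they read CACGT and CACGC). A match is a description of letters and shows no binding. The windows are chr7:46845554-46845803 for Ldha, chr3:104638414-104638663 for Slc16a1, chrX:106186850-106187099 for Pgk1, chr19:41911621-41911870 for Pgam1 and chr4:150236458-150236707 for Eno1, all on the plus strand, and chr6:142507958-142508207 for Ldhb on the minus strand. None of their bases lies in an annotated exon, and the Ldha window lies in an intron of a longer annotated Ldha transcript.
Ldha: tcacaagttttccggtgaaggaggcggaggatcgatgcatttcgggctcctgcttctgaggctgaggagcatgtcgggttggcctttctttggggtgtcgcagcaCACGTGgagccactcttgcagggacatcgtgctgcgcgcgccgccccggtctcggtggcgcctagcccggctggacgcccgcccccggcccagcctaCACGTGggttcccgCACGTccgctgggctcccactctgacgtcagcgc
Slc16a1: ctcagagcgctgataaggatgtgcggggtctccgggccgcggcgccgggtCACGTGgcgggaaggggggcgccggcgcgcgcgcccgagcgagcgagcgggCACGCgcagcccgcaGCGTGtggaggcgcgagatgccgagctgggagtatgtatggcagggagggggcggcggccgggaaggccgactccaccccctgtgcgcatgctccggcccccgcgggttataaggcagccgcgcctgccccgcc
Pgk1: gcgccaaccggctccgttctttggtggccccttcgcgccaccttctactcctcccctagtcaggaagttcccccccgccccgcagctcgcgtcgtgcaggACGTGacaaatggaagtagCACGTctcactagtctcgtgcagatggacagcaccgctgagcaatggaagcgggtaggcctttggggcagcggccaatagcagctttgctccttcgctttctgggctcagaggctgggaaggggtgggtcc
Pgam1: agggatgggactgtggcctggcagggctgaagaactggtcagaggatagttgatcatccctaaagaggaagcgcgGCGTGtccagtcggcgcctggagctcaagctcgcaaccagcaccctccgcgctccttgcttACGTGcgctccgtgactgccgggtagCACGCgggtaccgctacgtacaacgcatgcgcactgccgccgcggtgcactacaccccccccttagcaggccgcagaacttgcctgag
Eno1: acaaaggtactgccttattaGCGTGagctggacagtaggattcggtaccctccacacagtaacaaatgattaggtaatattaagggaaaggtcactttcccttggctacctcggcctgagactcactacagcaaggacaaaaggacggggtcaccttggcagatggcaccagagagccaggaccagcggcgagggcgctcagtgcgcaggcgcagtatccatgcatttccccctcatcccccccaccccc
Ldhb: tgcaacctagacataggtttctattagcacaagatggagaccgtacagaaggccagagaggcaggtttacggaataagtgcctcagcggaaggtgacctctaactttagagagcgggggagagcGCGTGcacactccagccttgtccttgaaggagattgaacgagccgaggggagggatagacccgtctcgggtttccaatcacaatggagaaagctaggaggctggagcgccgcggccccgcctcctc

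The Ldha window shown held 2 CACGTG words and 1 further ACGTG or GCGTG word, and the Slc16a1 window 1 and 2. The Pgk1, Pgam1, Eno1 and Ldhb windows shown held no CACGTG and 2, 3, 1 and 1 of the shorter words. Ldha and Eno1 have further RefSeq starts. The other Ldha window, chr7:46846832-46847081, held no CACGTG and 1 of the shorter words, and the other Eno1 windows held no CACGTG and 2 each. RefSeq windows were found for 37 of the 38 symbols, 53 windows in all. CACGTG stood in 5 of the 53 (9.43%) and in 6.02% of all 32851 windows of the same length. ACGTG or GCGTG outside a CACGTG stood in 38 of the 53 (71.7%) and in 35.4% of all windows. Base composition differed in the same direction, with a median GC content of 60.4% in the members' windows and 52.4% in all. Among windows of 60% GC or more, the words stood in 24 of 27 members' windows (88.9%) and in 60.3% of all. The 17 genes that were lower in stimulated Raptor knockout cells of both subsets, described below, had the words in 20 of 24 windows (83.3%, median GC 62.2%) and the other members in 18 of 29 (62.1%, median GC 57.2%). CACGTG stood in 2 of those 24 windows (8.33%), the Ldha and Slc16a1 windows shown. It stood in 3 of the other 29 (10.3%), which belong to Pdk2, Pfkfb3 and Pfkm. Windows of a gene with several starts were counted separately and can overlap.

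Stimulation raised most of the pathway in wild-type cells of both subsets. Of 36 tested members, 25 rose and 2 fell in CD4+ cells, and 27 rose and 2 fell in CD8+ cells (edgeR quasi-likelihood test, Benjamini-Hochberg adjusted p under 0.05). Across all 10493 tested genes 64.9% were called in CD4+ cells, 32.4% higher and 32.5% lower, so calls in either direction were common. In CD8+ cells 62.8% of all genes were called, 32.0% higher and 30.8% lower. The members' median log2 fold change was 1.72 in CD4+ and 1.78 in CD8+ cells, while the medians of all genes were -0.03 and 0.00. The same 25 members rose in both subsets, which is 25 of the 25 in CD4+ and of the 27 in CD8+ cells. For this and later counts of members called in several comparisons at once, the share over all genes was not counted. Summed over the 38 genes, the level was 925 to 1083 CPM in resting and 5087 to 5783 CPM in stimulated wild-type CD4+ cells, or 0.277% and 1.35% of protein-coding reads. In CD8+ cells the sum went from a mean of 1017 CPM to 5843 CPM. Other measures moved with stimulation, and their part in the rise was not tested. B cell markers went from a mean of 107 to 25.9 CPM in wild-type CD4+ and from 115 to 51.4 CPM in CD8+ cells. Most of these sums came from Ighm, which went from 97.1 to 22.9 CPM in CD4+ and from 104 to 49.4 CPM in CD8+ cells. Cd79a went from 6.69 to 0.902 CPM and from 4.06 to 0.0943 CPM, the last below the floor of 3 reads over a group. Mitochondrial ribosomal RNA went from 17.8% to 23.0% of the counts without Rn45s down to 9.16% to 13.0% in CD4+ cells and from 13.9% to 15.2% down to 7.20% to 10.1% in CD8+ cells. In bulk RNA, fewer cells of a type and less RNA per cell cannot be told apart.

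**Figure D1:**
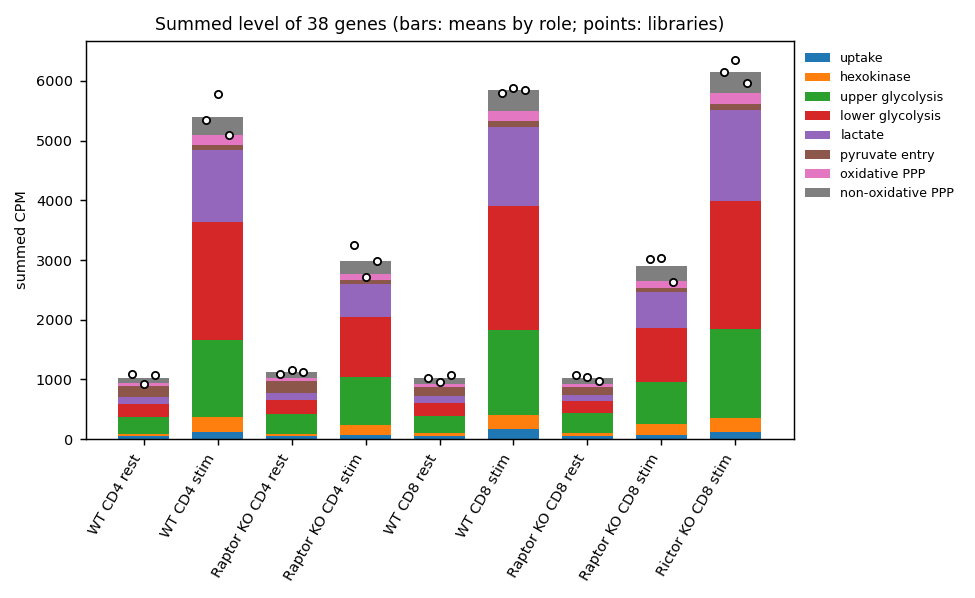
Summed level of the 38 genes in CPM (y axis) in each of the 9 groups (x axis), with stacked bars for the group means by role in the pathway and open points for the 3 libraries. The stimulated wild-type and Rictor knockout bars stand highest, at means of 5403 to 6157 CPM, the stimulated Raptor knockout bars at 2982 and 2898 CPM, and the resting bars at 1017 to 1128 CPM.

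Glucose enters T cells through GLUT1 and GLUT3, the products of Slc2a1 and Slc2a3. Slc2a1 stood at 16.0, 12.9 and 16.9 CPM in the resting and at 68.1, 94.0 and 66.9 CPM in the stimulated wild-type CD4+ libraries. It rose by 2.31 on the log2 scale (SE 0.20, adjusted p = 2.94e-13) in CD4+ and by 2.75 (SE 0.21, adjusted p = 5.75e-15) in CD8+ cells. Slc2a3 gave 0.40 (adjusted p = 0.144) in CD4+ cells and 0.73 (adjusted p = 0.00674) in CD8+ cells. That second call rested on stimulated CD8+ library 2, at 107 CPM beside 59.9 and 43.3 CPM, and without it the change was 0.31 (adjusted p = 0.167).

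Hk2, the inducible hexokinase that traps glucose in the cell, had the largest rise of the members. It was at 2.09, 0.645 and 0.514 CPM in resting wild-type CD4+ libraries and at 182, 166 and 138 CPM in stimulated ones. That is a log2 fold change of 7.22 (SE 0.33, adjusted p = 4.44e-20), and in CD8+ cells, from a mean of 3.15 to 167 CPM, it was 5.65 (SE 0.28, adjusted p = 6.38e-19). Hk1, the constitutive hexokinase, went from a mean of 40.2 ± 8.5 to 82.3 ± 17 CPM (SD, n = 3) in CD4+ cells, a log2 change of 1.02. Per kilobase of exon, Hk2 was below Hk1 in resting CD4+ cells (0.181 and 4.71 CPM per kb) and above it in stimulated ones (27.1 and 9.65 CPM per kb). Exon length here merges all annotated exons of a gene (5969 bases for Hk2, 8532 for Hk1) and can exceed that of the expressed transcript.

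Among the upper steps, which take glucose phosphate to triose phosphates, 7 of 8 tested members rose in each subset. Tpi1, the triose phosphate isomerase, rose most. Its level was 11.8, 7.75 and 12.8 CPM in resting and 368, 356 and 280 CPM in stimulated CD4+ cells, and it rose by 4.93 (SE 0.20, adjusted p = 5.66e-23) in CD4+ and 5.00 in CD8+ cells. Aldoa, the main aldolase, rose by 2.37 and 2.53 in CD4+ and CD8+ cells. The 3 phosphofructokinase genes, for the committed step, behaved differently in size: Pfkp rose by 2.35 and 1.77, Pfkl by 1.80 and 2.11 and Pfkm by 0.92 and 2.18. The Pfkm call in CD4+ cells was lost without resting wild-type library 2 (0.76, adjusted p = 0.0880). Pfkfb3, which makes the activator fructose 2,6-bisphosphate, rose by 0.65 and 0.86, Gpi1, the glucose phosphate isomerase, by 0.94 and 1.09, and Pfkfb4, a relative of Pfkfb3 at 1.63 to 6.56 CPM, passed no test in wild type.

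The lower steps make ATP and pyruvate, and 5 of 8 tested members rose in CD4+ and 6 of 8 in CD8+ cells. Gapdh went from a mean of 45.2 ± 4.0 CPM to 675, 763 and 693 CPM in CD4+ cells (log2 3.97, SE 0.16, adjusted p = 4.45e-23). Pgk1 rose by 4.11 and Pgam1 by 4.04 in CD4+ cells, and by 4.05 and 3.61 in CD8+ cells. Eno1, the main enolase, rose by 2.30 and 2.80 and Pkm, the pyruvate kinase gene, by 2.99 and 3.11. Eno3, the muscle enolase, gave 0.92 (adjusted p = 0.0588) in CD4+ and rose by 1.66 (adjusted p = 0.000173) in CD8+ cells. Eno2, the neuronal enolase, and Bpgm, the bisphosphoglycerate mutase, were at 7.51 CPM or less in every group and passed no test.

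Lactate genes rose except Ldhb. Ldha was at 98.8, 86.5 and 90.9 CPM in resting and at 928, 1045 and 911 CPM in stimulated wild-type CD4+ cells, so the groups were far apart. It rose by 3.38 (SE 0.15, adjusted p = 7.83e-22) in CD4+ and 3.72 (adjusted p = 1.28e-22) in CD8+ cells. Per kilobase of merged exon, Ldha was the highest of the 38 genes in stimulated wild-type cells, at 291 CPM per kb in CD4+ cells, followed by Gapdh at 172 and Aldoa at 160. This order can depend on the merged lengths, such as 3310 bases for Ldha and 4133 for Gapdh. Slc16a1, which encodes the proton-coupled lactate transporter MCT1, rose by 3.91 in CD4+ and 2.55 in CD8+ cells. Slc16a3, which encodes the export-adapted transporter MCT4, rose by 3.79 (SE 0.44, adjusted p = 1.16e-07) and 4.45 (SE 0.47, adjusted p = 3.41e-08). Of the stimulated CD4+ libraries, number 3 was low for Slc16a3, at 33.0 CPM beside 80.4 and 78.4 CPM. Ldhb, the lactate dehydrogenase gene of oxidative tissues, was at 2.19 to 7.20 CPM in stimulated wild-type and Raptor knockout groups and passed no stimulation test.

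Of the 5 genes at the entry of pyruvate into mitochondria, Pdk1 and Pdk2 fell and Pdk3 rose in each subset. Pdk1, a kinase that switches off pyruvate dehydrogenase, was at 176, 152 and 146 CPM in resting and 66.8, 57.0 and 39.4 CPM in stimulated CD4+ cells. It fell by 1.56 (SE 0.20, adjusted p = 1.04e-07) in CD4+ and by 1.14 (adjusted p = 1.62e-05) in CD8+ cells. The CD8+ call of Pdk1 was lost when Rn45s was kept in the library totals (edgeR adjusted p = 0.428). Pdk2, a second kinase of the family, was at 5.57, 2.58 and 9.24 CPM in resting CD4+ cells and had no read in the 3 stimulated libraries, which makes it at least 14.3-fold lower against a floor of 3 reads over the group (0.404 CPM). Pdk3 rose by 1.78 and 1.79 in CD4+ and CD8+ cells. Mpc1 and Mpc2, the subunits of the mitochondrial pyruvate carrier, gave -0.23 and -0.21 in CD4+ and 0.57 and -0.09 in CD8+ cells and passed no test.

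In the oxidative pentose phosphate branch, which makes NADPH, 2 of 3 members rose in each subset. G6pdx, its rate-limiting dehydrogenase, rose by 1.65 and 1.78 and Pgd, the second dehydrogenase, by 2.23 and 2.22, while Pgls, the lactonase between them, gave 0.49 and 0.05 and was not called. All 4 genes of the non-oxidative branch, which exchanges sugars between ribose and glycolysis, rose in both subsets. Tkt, the transketolase, was highest at 217, 214 and 223 CPM in stimulated against a mean of 42.0 CPM in resting CD4+ cells (log2 2.37). Rpia rose by 1.15, Rpe by 0.85 and Taldo1, the transaldolase, by 0.76 in CD4+ cells.

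**Figure D2:**
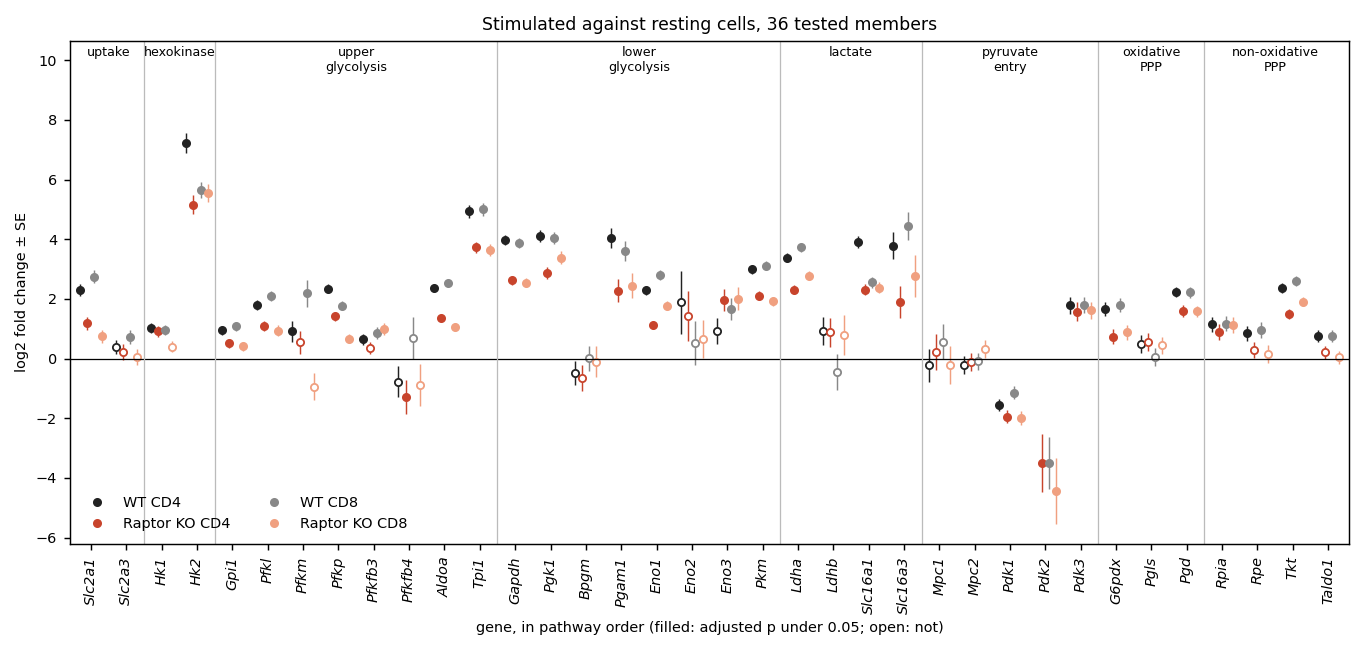
Log2 fold change with SE (y axis) of stimulated against resting cells for the 36 tested members (x axis, in pathway order), in wild-type and Raptor knockout CD4+ and CD8+ cells, with filled points for an adjusted p under 0.05. Wild-type points lie above those of the Raptor knockout for most glycolytic genes. Hk2 in wild-type CD4+ cells is the highest at 7.22, and Pdk2 has no point in wild-type CD4+ cells because no read was found in the stimulated libraries.

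In stimulated cells the Raptor knockout had lower levels of members in nearly every role. Of 36 tested members, 18 were lower and 1 higher than wild type in CD4+ cells, and 21 were lower and none higher in CD8+ cells. Of all genes tested, 17.4% were called in CD4+ cells (8.82% higher, 8.56% lower) and 11.7% in CD8+ cells (6.30% higher, 5.42% lower). The members' median log2 fold change was -0.53 in CD4+ cells, or -0.54 over the 35 members without Pdk2, and -0.80 in CD8+ cells, beside 0.04 and 0.03 for all genes. Libraries of the groups did not overlap for 23 members in each subset, beside 33.4% of all genes in CD4+ and 29.8% in CD8+ cells. The sum of the 38 genes was 5087 to 5783 CPM in wild-type and 2723 to 3244 CPM in knockout CD4+ libraries, and 5797 to 5885 against 2637 to 3036 CPM in CD8+ libraries, with no overlap in either subset. Relative to protein-coding reads alone it was 1.35% against 0.746% and 1.46% against 0.698%.

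The CD4+ and CD8+ comparisons share no library, but their libraries carry the same codes and were fitted together. The share of all genes lower in both was not counted. Of the members, 17 were lower in both, which is 17 of the 18 in CD4+ and of the 21 in CD8+ cells. They were Slc2a1, Pfkl, Pfkp, Aldoa, Tpi1, Gapdh, Pgk1, Pgam1, Eno1, Pkm, Ldha, Slc16a1, Slc16a3, G6pdx, Pgd, Tkt and Taldo1. Hk2 was called in CD4+ cells only, and Slc2a3, Pfkm, Pdk1 and Rpe in CD8+ cells only. A test of the difference between the 2 knockout effects called 0 of 36 members (edgeR), with 6 at an unadjusted p under 0.05 and 0 by DESeq2, and 0.334% of all genes were called. The subsets are therefore not shown to differ for any of these 5 genes.

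Slc2a1 was at 49.0, 42.7 and 33.1 CPM in stimulated knockout CD4+ libraries, all under the wild-type range of 66.9 to 94.0 CPM. The difference was -0.88 (SE 0.17, adjusted p = 0.000293) in CD4+ and -1.43 (SE 0.17, adjusted p = 7.3e-08) in CD8+ cells. Hk2 was at 87.7, 68.2 and 78.9 CPM in knockout CD4+ libraries, again below each wild-type library, and fell by 1.04 (SE 0.18, adjusted p = 7.56e-05). In CD8+ cells Hk2 was at 106, 151 and 114 CPM against 171, 156 and 175 CPM, a difference of -0.43 (SE 0.17, adjusted p = 0.103). Hk1 gave -0.13 (adjusted p = 0.613) and -0.42 (adjusted p = 0.0847).

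The chain from aldolase to pyruvate was lower at each main gene. Gapdh was at 367, 313 and 319 CPM in knockout CD4+ libraries against 675 to 763 CPM in wild type, and at 373, 346 and 252 CPM against 680 to 809 CPM in CD8+ cells. It fell by 1.09 (SE 0.14, adjusted p = 2.7e-07) and 1.20 (SE 0.14, adjusted p = 3.03e-08). Tpi1 fell by 1.10 and 1.35, Pgk1 by 1.12 and 1.18, Pgam1 by 1.15 and 1.49, Eno1 by 1.13 and 1.38 and Pkm by 0.81 and 1.20, in CD4+ and CD8+ cells. Aldoa fell by 0.69 and 1.16. Of the phosphofructokinases, Pfkl fell by 0.93 and 1.30 and Pfkp by 0.58 and 0.86, while Pfkm fell by 1.71 (adjusted p = 0.0019) in CD8+ cells and gave -0.53 (adjusted p = 0.277) in CD4+ cells. Gpi1, which stands between hexokinase and phosphofructokinase, gave 0.04 (SE 0.14, adjusted p = 0.880) and -0.34 (SE 0.14, adjusted p = 0.115).

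**Figure D3:**
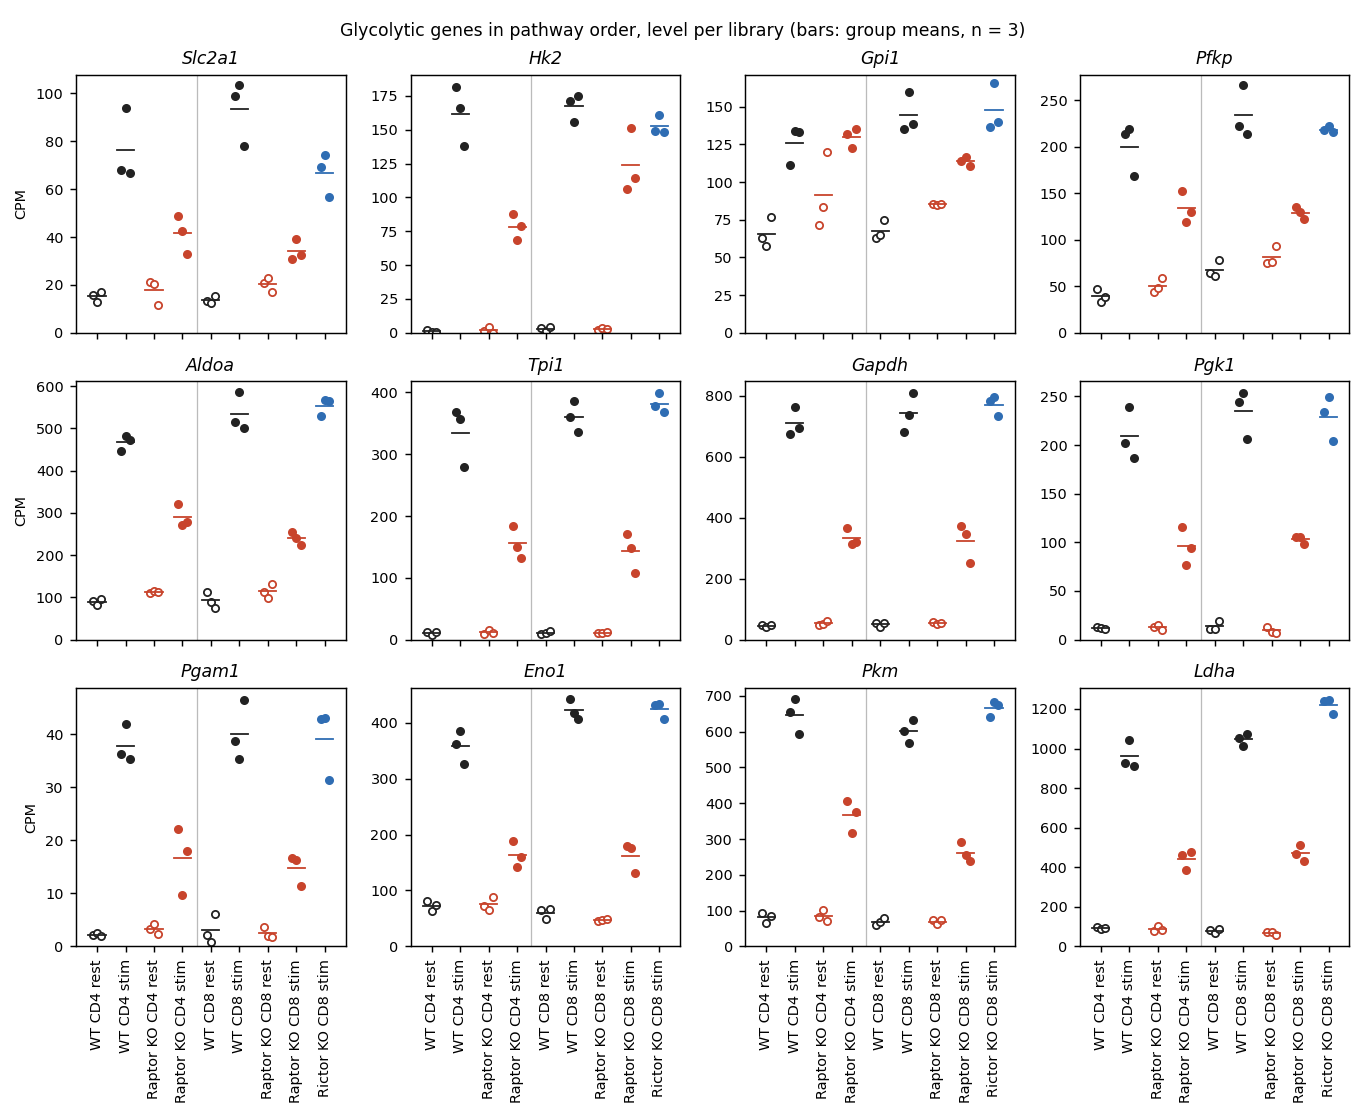
Level in CPM (y axes, from 0) of 12 genes in pathway order in each library of the 9 groups (x axis), with filled points for stimulated and open points for resting libraries and bars for the means of 3. For Tpi1, Gapdh, Pgk1, Eno1, Pkm and Ldha the stimulated Raptor knockout libraries lie between the resting and the stimulated wild-type libraries, while Gpi1 in CD4+ cells overlaps between genotypes.

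Eno3 was the only member higher in the knockout. It was at 20.5, 17.2 and 29.8 CPM in knockout and 8.43, 3.56 and 11.3 CPM in wild-type stimulated CD4+ libraries, with no overlap, a difference of 1.49 (SE 0.32, adjusted p = 0.00088). In CD8+ cells it was 0.32 (adjusted p = 0.513), from 20.5, 21.4 and 16.7 CPM in wild type. The CD4+ call was lost when Rn45s was kept in the library totals (adjusted p = 0.137).

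Of the 4 lactate genes, 3 were lower in the knockout in each subset. Ldha was at 460, 387 and 476 CPM in knockout CD4+ libraries and 466, 512 and 430 CPM in knockout CD8+ libraries, each below every wild-type library of its subset (911 to 1045 and 1014 to 1074 CPM). It fell by 1.12 (SE 0.14, adjusted p = 1.57e-07) and 1.16 (SE 0.14, adjusted p = 6.06e-08). Slc16a3 had the largest falls of the called members. It was at 24.5, 15.9 and 13.2 CPM in CD4+ and 15.1, 19.9 and 6.66 CPM in CD8+ knockout libraries and fell by 1.80 (SE 0.34, adjusted p = 0.000766) and 2.45 (SE 0.35, adjusted p = 4.61e-05). Fitted on the compared groups alone, the CD4+ call of Slc16a3 was lost (adjusted p = 0.0610). Slc16a1 fell by 1.00 and 0.75, and Ldhb gave 0.04 and 0.47 and was not called.

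Pdk1 was at 31.8, 28.8 and 30.6 CPM in stimulated knockout CD8+ libraries against 61.1, 64.2 and 54.3 CPM in wild type, a fall of 0.98 (SE 0.22, adjusted p = 0.00304). In CD4+ cells the libraries overlapped and the difference was -0.20 (adjusted p = 0.554). Pdk3 gave -0.34 and -0.16, Mpc1 0.04 and -0.68 and Mpc2 0.14 and 0.19, and none was called.

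In the pentose phosphate pathway, G6pdx fell by 0.70 and 0.85, Pgd by 0.92 and 0.55, Tkt by 0.66 and 0.46 and Taldo1 by 0.54 and 0.74, in CD4+ and CD8+ cells. Rpe fell by 0.88 (adjusted p = 0.0134) in CD8+ cells and gave -0.32 in CD4+ cells, and Rpia (-0.21 and -0.18) and Pgls (0.18 and 0.58) were not called. Several of these calls were lost when a library was left out. Tkt in CD8+ cells lost its call without any 1 of the 6 libraries except Raptor knockout library 2, with differences of -0.48 to -0.40 and adjusted p up to 0.133. Taldo1 in CD4+ cells lost its call without wild-type library 2 (-0.34, adjusted p = 0.275) or any 1 of the 3 knockout libraries (adjusted p 0.0549 to 0.114). Pgd in CD8+ cells lost it without wild-type library 1 or 3 or knockout library 3, and Rpe without wild-type library 1 or 3 or knockout library 2 or 3, with differences of -0.54 to -0.40 for Pgd (adjusted p up to 0.167) and -0.86 to -0.68 for Rpe (adjusted p up to 0.111). G6pdx lost it without knockout library 1 in CD4+ (-0.58, adjusted p = 0.0987) and without wild-type library 3 in CD8+ cells (-0.57, adjusted p = 0.0961).

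**Figure D4:**
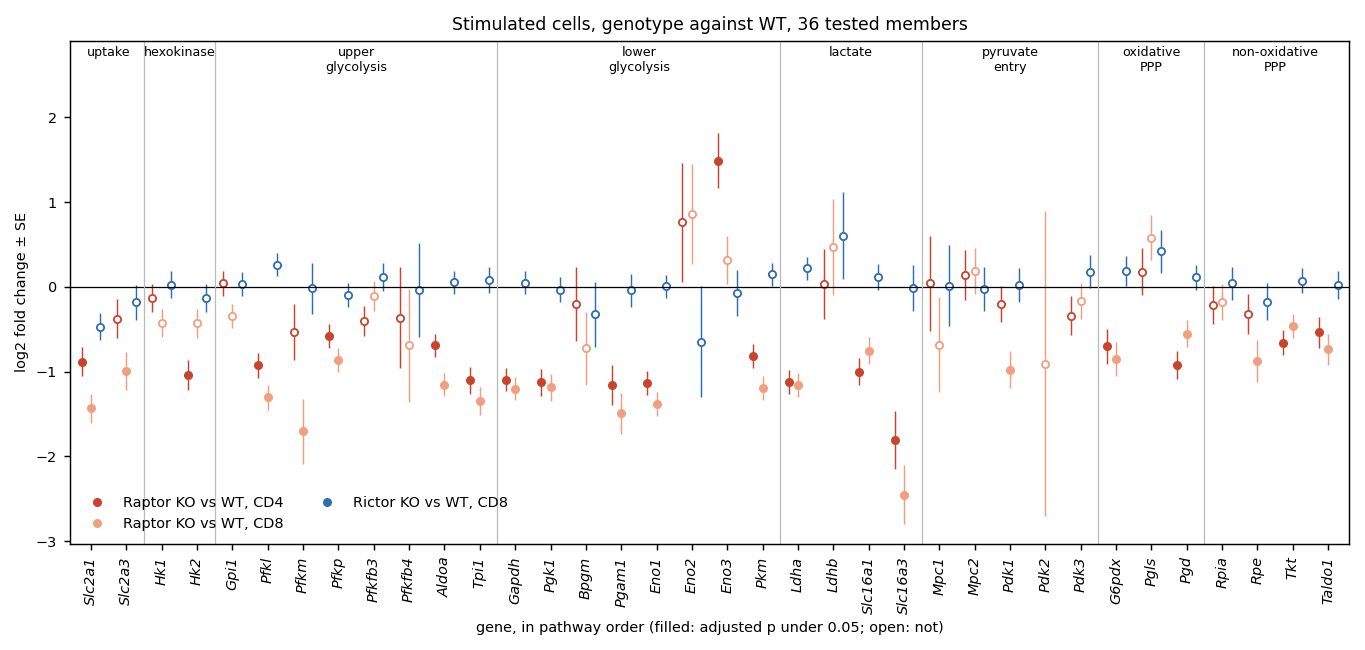
Log2 fold change with SE (y axis) of Raptor knockout against wild type in stimulated CD4+ and CD8+ cells and of Rictor knockout against wild type in stimulated CD8+ cells, for the 36 tested members in pathway order (x axis), with filled points for an adjusted p under 0.05. The Raptor knockout points lie below 0 for most members, Eno3 in CD4+ cells lies above at 1.49, and no Rictor knockout point is filled. Pdk2 has no point where a group had no read.

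The lower sums in stimulated knockout cells went with other measured differences, whose part in them was not tested. The median share of protein-coding reads was lower, as given above. Mitochondrial ribosomal RNA took 9.16% to 13.0% of the counts without Rn45s in wild-type and 12.7% to 14.6% in knockout CD4+ libraries, and 7.20% to 10.1% against 10.8% to 15.7% in CD8+ libraries. With Rn45s kept in the library totals and no further scaling, all genes shifted by a median of -0.50 and -0.52 in CD4+ and CD8+ cells, and the calls over all genes went from 925 higher and 898 lower to 67 and 619 in CD4+ cells and from 661 and 569 to 55 and 403 in CD8+ cells. Of the members, 16 and 19 were then lower and none higher, on a scale that has itself moved down. The 11 myeloid markers summed to 14.3 to 19.3 CPM in wild-type and 35.3 to 43.5 CPM in knockout stimulated CD4+ libraries. Only Ctss and Cd68 of them had enough reads to be tested. Ctss, also expressed by other cells, was higher by 1.29 (edgeR adjusted p = 0.000181), and Cd68 was at a mean of 1.91 CPM in wild-type and 3.39 CPM in knockout cells. Of the untested markers, Itgam, S100a8 and S100a9 had no read in these CD4+ libraries and Lyz2 had 1. The rest are given only within the sum. In CD8+ cells the myeloid sums were 26.8 to 35.3 and 34.5 to 54.1 CPM. B cell markers summed to a mean of 25.9 and 34.4 CPM in CD4+ and 51.4 and 46.7 CPM in CD8+ wild-type and knockout cells. Of these sums, Ighm made 22.9 and 27.6 CPM in CD4+ and 49.4 and 41.0 CPM in CD8+ cells.

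At rest the Raptor knockout was not shown to differ from wild type in any member. In CD4+ cells 0 of 36 members were called (edgeR), with 4 at an unadjusted p under 0.05 and 0 by DESeq2, and in CD8+ cells 0 were called, with 6 at an unadjusted p under 0.05 and 0 by DESeq2. Of all genes, 0.143% and 1.12% were called. Gapdh was at a mean of 53.8 ± 7.6 CPM in knockout and 45.2 ± 4.0 CPM in wild-type resting CD4+ cells (SD, n = 3), a difference of 0.25 (SE 0.15, adjusted p = 0.753). Ldha gave -0.05 (SE 0.14, adjusted p = 0.984) and -0.21 (SE 0.15, adjusted p = 0.704) in CD4+ and CD8+ cells. The medians of the members were 0.10 and -0.01. Single members ranged from -0.41 to 1.22 in CD4+ and from -0.78 to 1.42 in CD8+ cells.

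Stimulation still raised the pathway in the knockout, by less for some genes. In knockout CD4+ cells 22 members rose and 3 fell (Pdk1, Pdk2 and Pfkfb4), where 52.0% of all genes were called, 27.9% higher and 24.1% lower, and in CD8+ cells 22 rose and 2 fell, where 55.6% were called, 29.5% higher and 26.0% lower. The Pfkfb4 call (-1.30, adjusted p = 0.0486) was lost with DESeq2 (adjusted p = 0.0619), with no filter (adjusted p = 0.114), with Rn45s kept (adjusted p = 0.0702) and without resting library 1 or 2 or stimulated library 1 or 3 (adjusted p 0.0815 to 0.210). The median log2 fold change of the members was 1.11 and 0.91, beside 0.04 and 0.03 for all genes. Of the 25 members that rose in wild-type CD4+ cells, 21 also rose in the knockout, and Pfkm, Pfkfb3, Rpe and Taldo1 were not called there. Of the 27 in CD8+ cells, 22 also rose, and Slc2a3, Hk1, Pfkm, Rpe and Taldo1 were not called. The share of all genes that rose in both genotypes was not counted.

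The response itself was tested as the stimulation change in the knockout minus that in wild type. It was smaller in the knockout for 11 members in CD4+ and 10 in CD8+ cells and larger for none, where 5.82% of all genes were called in CD4+ (3.57% with a positive, 2.25% with a negative difference) and 2.89% in CD8+ cells (1.70% and 1.19%). Slc2a1, Pfkp, Aldoa, Tpi1, Gapdh, Eno1, Pkm and Ldha passed in both subsets, which is 8 of the 11 and of the 10. The subsets share no library here, but their libraries carry the same codes and were fitted together. The share of all genes passing in both was not counted. Pgk1, Slc16a1 and Tkt passed in CD4+ cells only and Pfkl and Pfkm in CD8+ cells only. For Gapdh the difference of the responses was -1.34 (SE 0.20, adjusted p = 4.3e-05) in CD4+ and -1.32 (SE 0.21, adjusted p = 6e-05) in CD8+ cells, and Gapdh rose by 2.63 in knockout against 3.97 in wild-type CD4+ cells. Pfkm had the largest difference, -3.13 (SE 0.64, adjusted p = 0.00203) in CD8+ cells, where it rose by 2.18 in wild type and gave -0.95 (adjusted p = 0.0679) in the knockout. Its fall in stimulated knockout CD8+ cells, given above, was smaller, so the resting levels of Pfkm also enter this value. With Rn45s kept in the totals, 0 members passed in CD4+ cells, where the calls over all genes went from 611 to 5 positive and 19 negative. In CD8+ cells 2 members passed, and the calls over all genes went from 303 to 5 positive and 33 negative. Slc2a1 in CD4+ cells lost its call without wild-type resting or stimulated library 2 or knockout resting library 1 or 2 (adjusted p 0.0584 to 0.0718), Tpi1 without knockout resting library 2 (-0.95, adjusted p = 0.133) and Tkt without knockout resting library 3 (adjusted p = 0.0524).

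Rictor knockout CD8+ cells were not shown to differ from wild type in any member after stimulation. With edgeR 0 of 36 were called, 1 had an unadjusted p under 0.05 and DESeq2 called 0, where 0.162% of all genes were called. The smallest adjusted p was 0.378, for Slc2a1 at 69.1, 74.3 and 56.8 CPM against 98.9, 103 and 78.1 CPM in wild type (-0.47, SE 0.16). The sum of the 38 genes was 5972 to 6356 CPM, above the wild-type range of 5797 to 5885 CPM. As a share of protein-coding reads it was 1.52%, 1.58% and 1.42%, which overlapped the wild-type range of 1.45% to 1.47%. Ldha was at 1238, 1246 and 1174 CPM, above each wild-type library, with a difference of 0.22 (SE 0.14, adjusted p = 0.942). The median of the members was 0.02. All 3 Rictor knockout libraries carry 1 library code. With the code as a block, 0 members were again called against wild type.

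Set against the Raptor knockout, the Rictor knockout had 21 members higher and none lower, where 15.3% of all genes were called, 7.00% higher and 8.30% lower. This comparison shares its Raptor knockout libraries with the comparison of Raptor knockout and wild type, so the values are side by side and not independent. Ldha was higher by 1.38 (SE 0.14, adjusted p = 1.24e-09), Eno1 by 1.39, Pfkl by 1.57 (SE 0.15, adjusted p = 1.84e-10) and Slc16a3 by 2.44 (SE 0.35, adjusted p = 3.67e-05). Hk2 gave 0.30 (adjusted p = 0.253) and Hk1 0.45 (adjusted p = 0.0519). The median was 0.73, or 0.76 over the 35 members without Pdk2. With the code as a block 21 members were called, 20 of them the same. Rpe lost its call without any 1 of Raptor knockout libraries 2 and 3 and the 3 Rictor knockout libraries (adjusted p up to 0.238), Slc2a3 without library 2 of either genotype (adjusted p up to 0.0742) and Tkt without Raptor knockout library 3 or Rictor knockout library 2 (adjusted p up to 0.0557).

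Few members were called between CD8+ and CD4+ wild-type cells, and the counts were not far from the shares of all genes. At rest 2 members were higher in CD8+ cells, where 3.33% of all genes were called, 1.59% higher and 1.73% lower. Slc16a1 was at 29.1, 36.1 and 39.6 CPM in CD8+ and 14.6, 9.68 and 10.8 CPM in CD4+ libraries, with no overlap, and was higher by 1.59 (SE 0.22, adjusted p = 1.58e-06). Pfkp was higher by 0.80 (SE 0.16, adjusted p = 0.00105). After stimulation 5.18% of all genes were called, 3.08% higher and 2.11% lower. Of the members, Eno3 was higher in CD8+ cells by 1.25 (adjusted p = 0.00936) and Ldhb was lower, with a difference of -1.73 (adjusted p = 0.0165). Both calls were lost without stimulated CD4+ library 2 (0.91, adjusted p = 0.115, and -1.52, adjusted p = 0.101), and that of Ldhb also without stimulated CD8+ library 3 (adjusted p = 0.151). With Rn45s kept in the totals no member was called between the subsets. Over all genes 45 were then higher and 140 lower at rest, with a median shift of -0.42, and 121 higher and 60 lower after stimulation.

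Some steps have alternative genes, and the balance within 6 pairs was followed as the log2 ratio of their counts in the same library, which does not depend on scaling but depends on the added 0.5 where a gene has few reads. Each was tested by an exact two-sided permutation test within subsets, over 400 relabellings with a smallest possible p of 0.005, and adjusted over the 12 tests. On stimulation of wild-type cells the balance moved towards Hk2 over Hk1 by 5.35, Ldha over Ldhb by 3.35 and Slc2a1 over Slc2a3 by 1.98 (each exact permutation adjusted p = 0.01). Pfkp over Pfkl moved by 0.11 (exact permutation adjusted p = 0.51) and Slc16a3 over Slc16a1 by 0.88 (exact permutation adjusted p = 0.126). For Slc16a3 over Slc16a1 the CD4+ libraries overlapped (difference -0.07) while the CD8+ libraries did not (1.83). Pdk1 over Pdk2 gave 2.70, or 2.02 with 1 count added. Since Pdk2 had no read in stimulated wild-type CD4+ cells, the added count sets that ratio and it is not read as a shift.

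Between stimulated Raptor knockout and wild-type cells, the Ldha to Ldhb ratio was lower, with -1.23 in CD4+, -1.63 in CD8+ cells and -1.43 over both (exact permutation adjusted p = 0.01), with no overlap in either subset. The Pfkp to Pfkl ratio was higher by 0.40 (exact permutation adjusted p = 0.01), with 0.37 in CD4+ and 0.44 in CD8+ cells and no overlap. The libraries did not overlap at rest either, with ratios of 0.32 to 0.45 in wild-type and 0.92 to 1.01 in knockout CD4+ cells and of 1.26 to 1.68 and 1.80 to 1.99 in CD8+ cells, a difference that was not tested. Slc16a3 to Slc16a1 gave -1.25 (exact permutation adjusted p = 0.0343), but the CD4+ libraries overlapped (-0.76) and the call was lost without wild-type CD4+ library 1 or 2, wild-type CD8+ library 1 or 3 or knockout CD4+ library 2 or 3. Hk2 to Hk1 gave -0.47 (exact permutation adjusted p = 0.0667), made of -0.93 in CD4+ cells, without overlap, and -0.02 in CD8+ cells. Slc2a1 to Slc2a3 gave -0.50 (exact permutation adjusted p = 0.072). These last ratios passed without wild-type CD8+ library 2, each with an exact permutation adjusted p of 0.042. Pdk1 to Pdk2 gave -1.18 and is set by the added count in wild-type CD4+ cells.

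**Figure D5:**
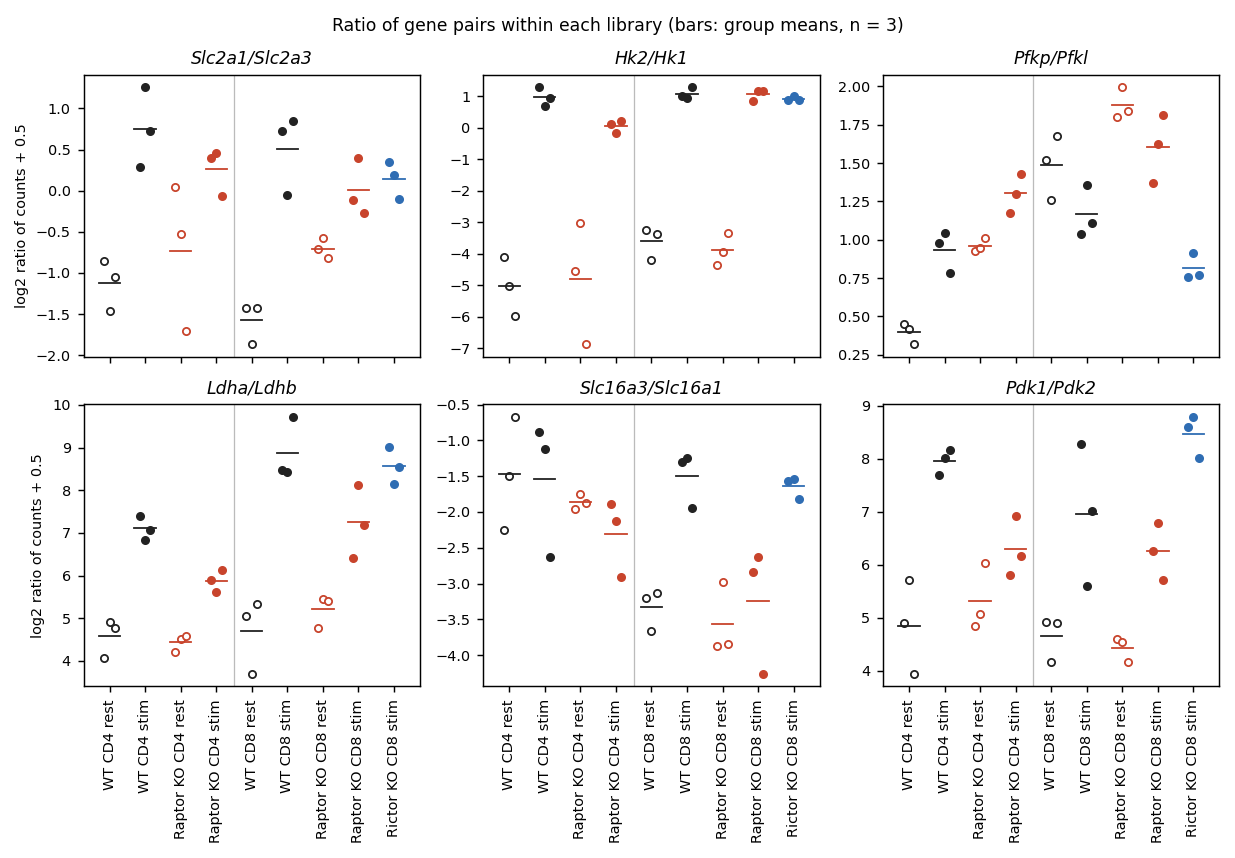
Log2 ratio of counts plus 0.5 (y axes) for 6 pairs of alternative genes in each library of the 9 groups (x axis), with filled points for stimulated and open points for resting libraries and bars for the means of 3. Hk2 over Hk1 goes from a mean of -5.03 in resting to 0.98 in stimulated wild-type CD4+ cells, and Pfkp over Pfkl is higher in Raptor knockout than in wild-type libraries of both subsets, at rest and after stimulation.

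Other genes of the same metabolism, listed by function, gave the following in the same fit. The lists were drawn up with earlier results of these data known. Apart from Hif1a, Myc and Txnip, the genes named from them were those of lowest p in their list. With stimulation, 32.4% of all genes rose in wild-type CD4+ and 32.0% in CD8+ cells. Between stimulated Raptor knockout and wild type, 8.56% and 5.42% of all genes were lower. Of 9 further glycolytic enzymes and transporters, 5 rose and 2 fell with stimulation in each wild-type subset, and 0 were called between Raptor knockout and wild type in stimulated cells of either subset. Pgm1, the phosphoglucomutase, rose by 1.68 and 1.86 and gave -0.49 and -0.67 in the knockout. Of 4 other lactate genes, 2 were lower in the knockout in each subset. Bsg, which encodes the chaperone of the lactate transporters, was at a mean of 98.2 CPM in wild-type and 50.3 CPM in knockout CD4+ cells and fell by 0.96 (adjusted p = 0.000118), and by 0.71 (adjusted p = 0.00304) in CD8+ cells. Of 9 genes of the shuttles that carry cytosolic NADH into mitochondria, 8 rose in CD4+ and 6 in CD8+ wild-type cells, and 3 and 4 were lower in the knockout. Got2, the mitochondrial aspartate aminotransferase, rose by 2.86 and 2.41 and gave -0.82 and -0.95 in the knockout.

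Of 8 tested genes of the pyruvate dehydrogenase complex and its regulators, 5 rose in each wild-type subset, and in the knockout 3 were lower and 1 higher in CD4+ and 2 lower and 1 higher in CD8+ cells. Dld, its dihydrolipoamide dehydrogenase, fell by 0.91 (adjusted p = 0.00055) and 1.08 (adjusted p = 4.25e-05), while Pdpr, a regulator of its phosphatase, was higher by 1.01 (adjusted p = 0.000258) and 0.57 (adjusted p = 0.0295). Of 6 other pentose phosphate and ribose genes 2 rose in each subset, near the share of all genes (32.4% in CD4+ and 32.0% in CD8+ cells). Prps1, which makes the ribose donor of nucleotides, rose by 2.00 and 1.93. In the knockout, 1 of the 6 was lower in CD4+ cells, H6pd (-0.86, adjusted p = 0.0291), and none in CD8+ cells. Of 9 hexosamine and glycogen genes, 4 and 6 rose, and Gys1, the glycogen synthase, was the only gene lower in the knockout, with -1.67 (adjusted p = 0.000376) in CD8+ cells.

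Among 15 regulators of glycolytic transcription, 6 rose and 5 fell with stimulation in each wild-type subset, not far from the shares of all genes. Those were 32.4% higher and 32.5% lower in CD4+ cells, and 32.0% and 30.8% in CD8+ cells. Hif1a rose by 2.01 and 1.97, and in stimulated knockout cells it fell by 0.62 (adjusted p = 0.0226) in CD4+ cells and gave -0.56 (adjusted p = 0.0535) in CD8+ cells. Myc rose by 2.39 and 2.27 and gave 0.23 (adjusted p = 0.590) and 0.57 (adjusted p = 0.180) in the knockout. Egln3, a prolyl hydroxylase that is itself a known HIF1A target, rose by 4.05 and 4.39 and fell by 1.62 (adjusted p = 0.0110) and 2.65 (adjusted p = 0.000767) in the knockout. Txnip, an inhibitor of glucose uptake, fell by 4.44 and 3.41 with stimulation, and in the knockout it was higher by 1.50 (adjusted p = 0.0417) in CD4+ cells and gave 0.05 (adjusted p = 0.965) in CD8+ cells.

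Reads of some members could be shared with other genes, since the strand setting of the counting is not given. Exons overlap a gene on the other strand for Pfkp (748 bases, Pitrm1), Gpi1 (741, Gm26762), Rpe (558, Kansl1l), Mpc1 (480) and G6pdx (418, Ikbkg), and a gene on the same strand for Pgls (776, Fam129c) and Pkm (767, Gm49759). Copies took few reads: Eno1b had 165 beside 12701 for Eno1 over all libraries, Ldha-ps2 11 beside 33013 for Ldha, and Mpc1-ps 23 beside 203 for Mpc1.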

How the data were processed

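The authors deposited read counts per gene in 1 table for all 27 libraries. STAR 2.6.0a and the build GRCm38 are named in the submitters' processing notes. How reads were counted, on which annotation and with which strand setting, is not given in the sources used here. Symbols came from an annotation of that build, in which 26765 of 26802 gene IDs were found. Rn45s, at 81.1% to 88.4% of counts, was left out. Genes with too few reads (minimum count 10, minimum total 15) were dropped, which left 10493. Counts were scaled by TMM and fitted with 1 mean per group over all 27 libraries (edgeR 4.0.16 with limma 3.58.1, R 4.3.3, quasi-likelihood test, Benjamini-Hochberg adjusted p under 0.05) in 15 comparisons. The SE is the unshrunken log2 fold change over the root of F. Gene-pair ratios used counts plus 0.5. The fit was tested on simulated counts. DESeq2 1.42.0, other filters and scalings, single groups of genes or libraries and the library code as a block were the alternatives. All members, the targeted genes, Hif1a, Myc, Txnip and the gene of lowest p in each further list are named. The members and lists were chosen with earlier results of these data known. Non-Rn45s counts of 1522199 to 2515583 per library limit the precision of low genes, with a common biological coefficient of variation of 0.187.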

Additional observations from a re-analysis of the deposited data

Results flagged for a closer look

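The stimulation response differed between Raptor knockout and wild-type cells for 21 gene and subset combinations, by the edgeR interaction test (adjusted p under 0.05). The values are the log2 change with stimulation in the knockout minus that in wild type. In CD4+ cells they were -1.12 for Slc2a1, -0.93 for Pfkp, -1.01 for Aldoa, -1.21 for Tpi1, -1.34 for Gapdh and -1.24 for Pgk1. Further along the pathway in CD4+ cells they were -1.17 for Eno1, -0.89 for Pkm, -1.08 for Ldha, -1.60 for Slc16a1 and -0.88 for Tkt. In CD8+ cells they were -2.00 for Slc2a1, -1.17 for Pfkl, -3.13 for Pfkm, -1.11 for Pfkp and -1.46 for Aldoa. The lower steps in CD8+ cells gave -1.37 for Tpi1, -1.32 for Gapdh, -1.02 for Eno1, -1.20 for Pkm and -0.95 for Ldha. The resting levels of these genes enter these values and were not shown to differ between the genotypes. With Rn45s kept in the library totals, of these only Slc2a1 and Pfkm in CD8+ cells passed. Groups of 3 were too small for a test of single outlying libraries.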

How the results depend on the processing

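Of 191 calls of members over the comparisons, none changed direction under any alternative, 46 were lost under at least 1, and 21 of those under leaving out a library. Keeping Rn45s in the totals without TMM lost 37, a fit of the compared groups alone 4 (Slc16a3 and Taldo1 between Raptor knockout and wild type in CD4+ cells, Slc2a3 in CD8+ cells at adjusted p = 0.166 and with stimulation of wild-type CD8+ cells), DESeq2 and no filter 1 each (Pfkfb4 with stimulation of Raptor knockout CD4+ cells) and the block 1 (Rpe between Rictor and Raptor knockout, adjusted p = 0.0551). Median-ratio size factors, a filter at 5 CPM and protein-coding genes only lost none. With Rn45s kept, the count of members called was 0 between resting and 0 between stimulated CD8+ and CD4+ wild-type cells, 0 for the interaction in CD4+ and 2 in CD8+ cells. All genes then shifted by a median of 0.28 and 0.77 with stimulation in wild-type CD4+ and CD8+ cells and by -0.50 and -0.52 between Raptor knockout and wild type. With a pseudocount of 1 the Pdk1 to Pdk2 ratio in the Raptor knockout passed (-1.10, exact permutation adjusted p = 0.0171), a ratio that the added count sets since Pdk2 had no read in stimulated wild-type CD4+ cells.

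Leaving out each library gave 0 to 2 members between stimulated CD8+ and CD4+ cells, 17 to 19 and 17 to 21 for the Raptor knockout in stimulated CD4+ and CD8+ cells, and 9 to 12 and 10 to 11 for the interactions. The ratios in the Raptor knockout ranged from -1.52 to -0.998 for Slc16a3 to Slc16a1, -0.63 to -0.37 for Slc2a1 to Slc2a3, -0.54 to -0.40 for Hk2 to Hk1 and -1.52 to -0.85 for Pdk1 to Pdk2, and with stimulation from 0.69 to 1.15 for Slc16a3 to Slc16a1, which passed without wild-type CD4+ stimulated library 3 (1.15, exact permutation adjusted p = 0.045). With stimulation of Raptor knockout CD4+ cells, calls were lost for G6pdx without resting library 2 or stimulated library 3, for Gpi1 without resting library 1, for Rpia without resting library 3 and for Pfkfb4 without resting library 1 or 2 or stimulated library 1 or 3 (adjusted p 0.0535 to 0.210). Taldo1 between Raptor knockout and wild-type CD8+ cells was lost without knockout library 3 (adjusted p = 0.0673).

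The labels give groups the same library numbers. With the library code as a replicate block the members called were 27 and 29 for stimulation in wild-type CD4+ and CD8+ cells, 19 and 21 for the Raptor knockout in stimulated cells, 0 for the Rictor knockout against wild type and 12 and 13 for the interactions. Deviations of libraries with the same number correlated at -0.178 to 0.367, 13 of 36 pairs above 0.1, and 21 of 36 correlated best with their own number. Without the Rictor knockout, whose 3 numbers share 1 code, the range was -0.020 to 0.367 and 20 of 30 correlated best with their own, a hint from the data. Since 17 of these 30 stayed at or below 0.1, the numbers were not taken as a pairing. Genes below a few CPM, such as Pdk2, Hk3, Aldoc, Eno2 and Mpc1, are limited by depth.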
